A study of Mus musculus with 9 samples.

Results

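Deletion of Cosmc in podocytes was examined in isolated mouse glomeruli with Cre present on both sides of the comparison. The 4 Cosmc KO libraries were set against the 3 control libraries that carry Podo-Cre and an intact Cosmc allele, 7 of the 9 libraries of the series. These libraries were picked by genotype, a choice made with earlier results of these data known, and all genes were tested. The Cosmc KO mice (Podo-Cre; Cosmc Y/flox) were 35, 34, 31 and 30 days old (Cosmc KO 1 to 4), and the Cre-carrying controls (Podo-Cre; Cosmc Y/+) were 35, 30 and 30 days old (Cre-carrying controls 1, 4 and 5). The 2 libraries left out came from mice without Cre, a floxed one of 34 days (Cre-free control 2, Cosmc Y/flox) and a non-floxed one of 31 days (Cre-free control 3, Cosmc Y/+). All mice were male and of the C57BL/6 strain, and glomeruli were collected on magnetic beads after perfusion before poly(A) RNA was sequenced. Every Cosmc KO mouse carries both the transgene and the floxed allele, whereas no Cre-carrying control carries a floxed allele, so these differ in the allele as well as in its deletion. The labels name the transgene only as Podo-Cre and give neither its promoter nor its construct, and endothelial, mesangial and parietal cells in the same glomeruli are not stated to lose Cosmc.

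Cosmc, listed as C1galt1c1, is an X-linked chaperone of the endoplasmic reticulum. It folds the enzyme C1galt1, which adds galactose to the first sugar of mucin-type O-glycans and so builds core 1 structures. Podocytes wrap the glomerular capillaries with interlocking foot processes, and their surface is rich in sialylated mucin-like proteins such as podocalyxin and podoplanin that carry these sugars.

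Sequencing yielded 35.0 to 58.1 M reads over the listed genes in Cosmc KO and 37.0 to 41.8 M in Cre-carrying controls. The podocyte marker Synpo was abundant throughout, and it averaged 63642 ± 19319 in Cosmc KO and 124826 ± 20059 in Cre-carrying controls (normalized read count, SD, n = 4 and n = 3). Tubule RNA varied widely. The summed level of 36 proximal tubule markers ranged from 120127 to 929608 in Cosmc KO and from 82290 to 174630 in Cre-carrying controls, and none of the 36 was at 0 in any of these groups. The first principal component, which held 61.7% of the variance, placed Cosmc KO 2, 3 and 4 at 75.35, 62.03 and 24.00 and Cosmc KO 1 at -25.68, beside Cre-carrying control 4 at -25.96. The other Cre-carrying controls lay at -54.19 and -55.55. On the second component, which held 14.2%, Cosmc KO 1 lay apart from Cre-carrying control 4, at -47.37 against 22.43. Values below are normalized read counts, given as mean ± SD with n = 4 Cosmc KO and n = 3 Cre-carrying controls. Differences are log2 fold changes of Cosmc KO minus Cre-carrying control on log2(value + 1), with ± SE, and p is limma's, adjusted by Benjamini-Hochberg over all genes tested. A gene was called, and is said to have risen or fallen, at an adjusted p under 0.05. This log2(value + 1) scale understates the change of genes with low values.

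The deleted gene was examined first. C1galt1c1 (chromosome X, 38630783 to 38635143, GRCm38.p6) read 1123, 939, 1030 and 751 in Cosmc KO 1 to 4 and 1552, 1385 and 1409 in Cre-carrying controls 1, 4 and 5. All 4 Cosmc KO libraries lay below every Cre-carrying control, and KO 4 was the lowest. The difference was -0.61 ± 0.15 and missed the threshold (adjusted p = 0.0805). It passed without Cosmc KO 1 (adjusted p = 0.0139), with DESeq2 on the recovered reads (adjusted p = 0.0114), in the fit of all 9 libraries in 3 groups (adjusted p = 0.0440) and against all 5 controls as 1 group (-0.63 ± 0.11, adjusted p = 0.0111). It did not pass with edgeR (adjusted p = 0.0703), limma-voom (0.0659), age as a covariate (0.0691) or against the Cre-free controls (0.0922). Nor did it pass with the tubule covariate described below (-0.49 ± 0.20, adjusted p = 0.434). The call was also missed when any single library but Cosmc KO 1 was left out (adjusted p up to 0.250). The Cre-free controls read 1508 and 1487, within the range of the Cre-carrying ones. The labels do not say which part of the gene is floxed. In these bulk samples fewer cells of a type and less RNA per cell cannot be told apart, here or in any result below. C1galt1, the client enzyme of the chaperone, averaged 2477 ± 210 in Cosmc KO and 2518 ± 117 in Cre-carrying controls (-0.03 ± 0.10, adjusted p = 0.885).

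None of the 23 tested enzymes of mucin-type O-glycan synthesis and sialylation passed in either direction, of 28 on the list, and their median difference was 0.12. The median over all genes tested was -0.00. Galnt10, which starts O-glycans by attaching the first sugar, averaged 14392 ± 4327 in Cosmc KO and 23444 ± 5186 in Cre-carrying controls (-0.73 ± 0.25, adjusted p = 0.163). St3gal1, which caps core 1 with sialic acid, averaged 9225 ± 2088 in Cosmc KO and 14544 ± 1200 in Cre-carrying controls (-0.68 ± 0.18, adjusted p = 0.0953). Both are among the most abundant members of the list. Without Cosmc KO 1, 6 of the enzymes rose and 5 fell, where 13.1% of all genes rose and 10.5% fell. Among 13 sialomucins and other heavily O-glycosylated surface proteins, 1 rose and none fell, where 1.69% of all genes rose. The member that rose was Mcam, an adhesion molecule of vascular and mesangial cells. It stood at 16833 ± 1075 in Cosmc KO and 11653 ± 192 in Cre-carrying controls (0.53 ± 0.10, adjusted p = 0.0346). Mcam lost its call without any single library but Cosmc KO 1 (adjusted p up to 0.158). Podxl (podocalyxin) and Pdpn (podoplanin), the sialomucins of the podocyte surface, differed by -0.91 ± 0.39 and -0.82 ± 0.25 and did not pass (adjusted p = 0.219 and 0.132). Without Cosmc KO 1 the adjusted p of Pdpn was 0.00779 and that of Podxl 0.0520.

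**Figure D1:**
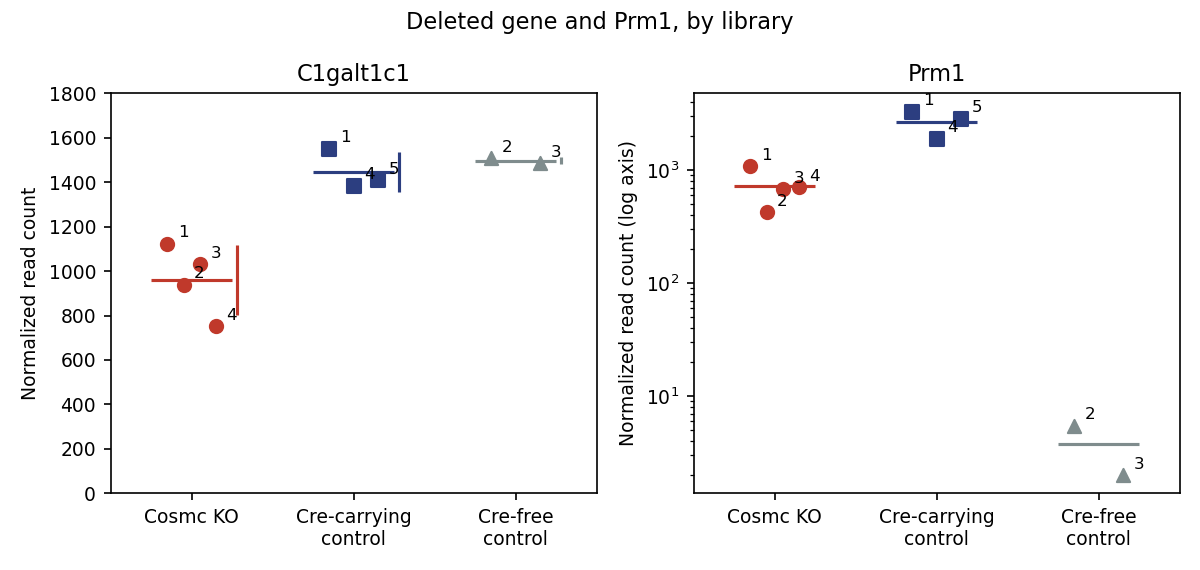
C1galt1c1 (left, linear axis, normalized read count) and Prm1 (right, log axis, normalized read count) in each library, with the group mean as a horizontal line, ± SD as a vertical line for C1galt1c1, and the animal's number beside each point. The 4 Cosmc KO libraries lie at 751 to 1123 for C1galt1c1, below all controls, and Prm1 is at 424 to 1078 in Cosmc KO, 1892 to 3283 in Cre-carrying controls and 2.00 to 5.47 in Cre-free controls.

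The direction of Prm1 depended on whether the controls carried Cre, and Prm1 passed both ways. Prm1, the sperm protein protamine 1 (chromosome 16, 10796332 to 10796823, GRCm38.p6), was the only gene that differed between the types of control, 1 of 16849 tested (0.00594%), in a fit of all 9 libraries in 3 groups (9.21 on the log2 scale, adjusted p = 6.8e-05). Prm1 included, 349 genes had an unadjusted p under 0.05 there. With edgeR and without Cre-free control 3, none was called, and 391 had an unadjusted p under 0.05. Prm1 read 1078, 424, 683 and 711 in Cosmc KO 1 to 4, 3283, 1892 and 2851 in Cre-carrying controls 1, 4 and 5, and 5.47 and 2.00 in Cre-free controls 2 and 3. All 7 Cre-carrying libraries were high, and within them the Cosmc KO libraries lay below the controls. Cosmc KO minus Cre-carrying control was -1.92 ± 0.31 (adjusted p = 0.0229), whereas Cosmc KO minus Cre-free control was 7.29 (adjusted p = 0.000347). The comparison with Cre-carrying controls was not called without Cosmc KO 3 or 4 or without Cre-carrying control 1 or 5 (adjusted p up to 0.122). As background, protamine 1 segments serve as the polyadenylation signal in many Cre constructs. Whether the transgene gives these reads was not tested.

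Across all genes, 437 of 16794 (2.6%) were called, 284 higher (1.69%) and 153 lower (0.911%) in Cosmc KO. The median difference was 1.40 among the higher genes and -1.27 among the lower ones, and 81 rose and 33 fell by over 2 on the log2 scale. All 437 had groups that did not overlap, Cosmc KO 1 included, as did 19.2% of all genes tested. Single libraries moved the count strongly. It was 3963 (23.7%) without Cosmc KO 1, 250, 115 and 216 without Cosmc KO 2, 3 and 4, and 113, 130 and 71 without Cre-carrying controls 1, 4 and 5. In all 7 of these fits 64 genes were called, 58 higher and 6 lower. Of the 64, 59 were also called with the proximal tubule score, the mean log2(value + 1) of that marker list in a library, as a covariate. With that covariate 94 of the 284 higher genes and 13 of the 153 lower ones were called, and 133 genes in all (0.792%). The scores were 9.74, 12.35, 12.36 and 11.48 in Cosmc KO 1 to 4 and 9.46, 10.49 and 8.92 in Cre-carrying controls 1, 4 and 5. Cosmc KO 1 lay within the range of the Cre-carrying controls, and the other Cosmc KO libraries lay above it.

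**Figure D2:**
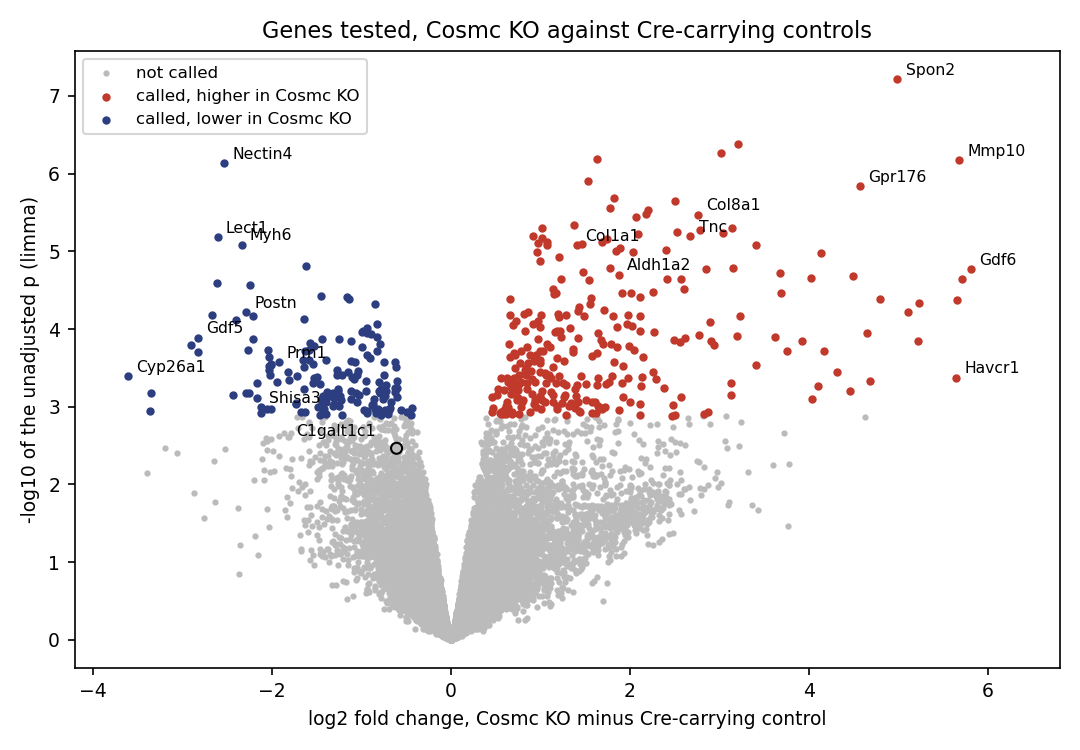
Each point is a gene, with the log2 fold change of Cosmc KO minus Cre-carrying control on the x axis and -log10 of limma's unadjusted p on the y axis. The 284 called higher genes reach further to the right, up to Gdf6 at 5.81, than the 153 called lower genes reach to the left, and C1galt1c1 (open circle) at -0.61 lies just under the called genes.

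Genes nearly silent in Cre-carrying controls made up the top of the higher list. Spon2, a secreted matrix protein of the spondin family (chromosome 5, 33213518 to 33218254, GRCm38.p6), read 2120, 1605, 1656 and 1834 in Cosmc KO 1 to 4, against 65.6, 34.7 and 75.5 in Cre-carrying controls 1, 4 and 5. The Cosmc KO values were even, Cosmc KO 1 was the highest, and the lowest lay far above every control. Spon2 had the smallest p of the named genes (4.98 ± 0.26, adjusted p = 0.00101), and its difference was 5.49 with the tubule covariate and 5.12 without Cosmc KO 2 and 3. Gpr176, an orphan G protein-coupled receptor, read 123, 131, 137 and 147 in Cosmc KO and 3.17, 9.46 and 3.24 in Cre-carrying controls (4.57 ± 0.36, adjusted p = 0.00306). It too was even across Cosmc KO. Gdf6, a secreted ligand related to the bone morphogenetic proteins, read 94.3, 144, 120 and 476 in Cosmc KO and 1.06, 1.05 and 5.39 in Cre-carrying controls (5.81 ± 0.64, adjusted p = 0.00595). Cosmc KO 4 was the highest by far, and Gdf6 too was called in all 7 fits that left out 1 library. Gdf5, a close relative, moved the other way, at 46.6 ± 18.3 in Cosmc KO and 340 ± 153 in Cre-carrying controls (-2.83 ± 0.41, adjusted p = 0.0166), and was not called without Cosmc KO 3 or Cre-carrying control 4 or 5 (adjusted p up to 0.0937).

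Crct1, a gene of the epidermal differentiation cluster, had 390 reads over the 4 Cosmc KO libraries and 1 read over the 3 Cre-carrying controls, a ratio of 235 after scaling (95% exact interval 41.9 to 9294). The interval covers counting error only. Crct1 stood at 44.1, 122, 140 and 24.1 in Cosmc KO 1 to 4 (adjusted p = 0.00677), highest in Cosmc KO 2 and 3, and was called in all 7 fits that left out 1 library. Il1f6, which encodes interleukin-36 alpha, had 327 reads in Cosmc KO and none in Cre-carrying controls, so that it was at least 65.6-fold higher against a floor of 3 reads over the control group (adjusted p = 0.00923). It read 18.4, 153, 79.5 and 25.5 in Cosmc KO 1 to 4, and 6.83 in Cre-free control 2. Serpina10, an inhibitor of coagulation proteases, averaged 192 ± 181 in Cosmc KO and 2.84 ± 1.65 in Cre-carrying controls (5.22 ± 0.77, adjusted p = 0.0170). The receptor gene Gpr165 and the annexin gene Anxa8 rose by 4.68 ± 0.83 and 4.65 ± 0.67 (adjusted p = 0.0312 and 0.0153). Il1f6 was lost without Cre-carrying control 1 or 5, Anxa8 also without Cosmc KO 3, and Serpina10 also without Cosmc KO 3 or Cre-carrying control 4. Gpr165 was lost without Cosmc KO 2, 3 or 4 or Cre-carrying control 1 or 5. The adjusted p reached 0.0600, 0.0685, 0.0858 and 0.139 in these fits, in the same order of genes.

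Among the genes that fell, Nectin4, an adhesion protein of epithelia (chromosome 1, 171370173 to 171388287, GRCm38.p6), had the smallest p of those named. It read 208, 161, 221 and 239 in Cosmc KO 1 to 4, against 1111, 1052 and 1446 in Cre-carrying controls 1, 4 and 5 (-2.53 ± 0.18, adjusted p = 0.00204). Every Cosmc KO library was far below every control, with Cosmc KO 1 among the others. Lect1, which encodes chondromodulin, an inhibitor of vessel growth, read 12.3, 15.2, 15.3 and 15.2 in Cosmc KO and 99.4, 73.6 and 109 in Cre-carrying controls (-2.60 ± 0.25, adjusted p = 0.00396). Myh6, the alpha cardiac myosin heavy chain, averaged 55.0 ± 12.4 in Cosmc KO and 277 ± 30.5 in Cre-carrying controls (-2.34 ± 0.23, adjusted p = 0.00396), with reads that its close copy Myh7 may share. Postn, the matrix protein periostin, averaged 102 ± 18.0 in Cosmc KO and 527 ± 247 in Cre-carrying controls (-2.28 ± 0.30, adjusted p = 0.0119). These 4 genes were called in all 7 fits that left out 1 library, and Nectin4, Lect1 and Myh6 also with the tubule covariate, where Postn had an adjusted p of 0.0652.

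Cyp26a1 and Aldh1a2 are given together because both enzymes act on retinoic acid. No list of that pathway was tested, and the pairing was made after their values were seen. Cyp26a1, which degrades retinoic acid, read 24.5, 4.48, 9.17 and 15.2 in Cosmc KO 1 to 4 and 127, 81.0 and 321 in Cre-carrying controls 1, 4 and 5 (-3.61 ± 0.62, adjusted p = 0.0288). Aldh1a2, which makes retinoic acid, read 2058, 1452, 1420 and 2230 in Cosmc KO and 571, 382 and 496 in Cre-carrying controls (1.88 ± 0.21, adjusted p = 0.00654). Neither gene overlapped between the groups, which held for all 437 called genes and for 19.2% of all genes tested. Aldh1a2 was called in all 7 fits that left out 1 library, and Cyp26a1 was lost without Cosmc KO 3 or 4 or any 1 Cre-carrying control (adjusted p up to 0.122).

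Further large falls included Mgat5b, an enzyme that branches O-mannosyl glycans, which averaged 70.2 ± 47.3 in Cosmc KO and 643 ± 356 in Cre-carrying controls (-3.34 ± 0.62, adjusted p = 0.0367). The calcium channel subunit Cacna2d2 fell by 2.82 ± 0.44 and Astn2, an astrotactin known from migrating neurons, fell by 2.40 ± 0.33 (adjusted p = 0.0193 and 0.0129). H2-Q6, a class Ib histocompatibility gene, averaged 15050 ± 7158 in Cosmc KO and 66782 ± 8780 in Cre-carrying controls (-2.27 ± 0.35, adjusted p = 0.0191), with reads that near-identical copies may share. Fgfbp1, a carrier of fibroblast growth factors, fell by 2.25 ± 0.42 and Lmntd1 fell by 2.44 ± 0.46 (adjusted p = 0.0366 and 0.0378). Leaving out Cre-carrying control 1 or 5 ended each of these 6 calls. So did Cosmc KO 3 for all but Astn2, Cosmc KO 4 for Mgat5b, Cacna2d2, Fgfbp1 and Lmntd1, Cosmc KO 2 for Fgfbp1 and Lmntd1, and Cre-carrying control 4 for all but Astn2 and Fgfbp1. The adjusted p reached 0.140 for Mgat5b, 0.0998 for Cacna2d2, 0.0716 for Astn2, 0.109 for H2-Q6, 0.166 for Fgfbp1 and 0.173 for Lmntd1.

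**Figure D3:**
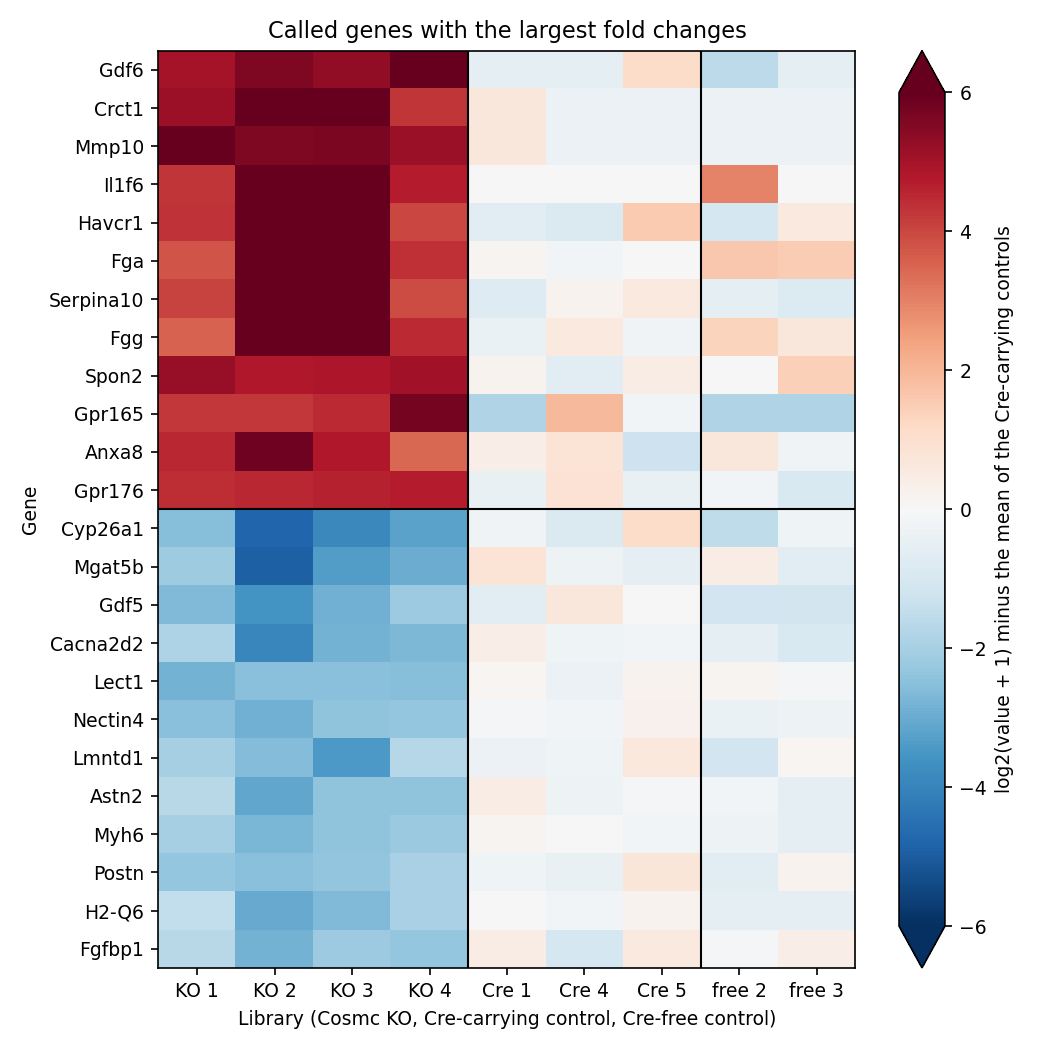
The 12 higher and 12 lower named genes with the largest fold changes (rows), coloured by log2(value + 1) minus the mean of the 3 Cre-carrying controls, by library (columns: Cosmc KO, Cre-carrying control, Cre-free control), with colours ending at 6 and -6. Spon2, Gpr176, Lect1 and Nectin4 are even across the 4 Cosmc KO libraries, whereas Crct1, Il1f6, Havcr1, Fga and Fgg are strongest in Cosmc KO 2 and 3.

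Some genes of the matrix metalloproteinases, enzymes that cleave matrix proteins, rose. The family was picked after its values were seen. Of 17 Mmp genes tested 7 rose, none fell and 10 did not pass, where 1.69% of all genes rose and 0.911% fell. Of the 7, 5 lie in 1 stretch of chromosome 9 that also holds Mmp8 (Mmp13, Mmp12, Mmp3, Mmp10 and Mmp27, between 7272514 and 7581885, GRCm38.p6). Mmp10 (stromelysin 2) had 294 reads in Cosmc KO and 1 in Cre-carrying controls, a ratio of 177 (95% exact interval 31.5 to 7012, adjusted p = 0.00204). It stood at 98.0, 61.0, 61.9 and 44.8 in Cosmc KO 1 to 4. Mmp27 had 143 reads in Cosmc KO and 1 in Cre-carrying controls, a ratio of 86.1 (15.2 to 3423, adjusted p = 0.00674). Cosmc KO 1, the Cosmc KO library lowest in tubule RNA, was the highest for Mmp10 and second for Mmp27. Mmp3 (stromelysin 1) averaged 125 ± 18.6 in Cosmc KO and 25.8 ± 7.58 in Cre-carrying controls (2.26 ± 0.27, adjusted p = 0.00871). The macrophage elastase gene Mmp12 averaged 68.2 ± 19.7 in Cosmc KO and 8.82 ± 5.13 in Cre-carrying controls (2.89 ± 0.40, adjusted p = 0.0133), and the collagenase gene Mmp13 averaged 32.2 ± 6.39 in Cosmc KO and 8.16 ± 3.47 in Cre-carrying controls (1.92 ± 0.36, adjusted p = 0.0384). Mmp8 was not called, at 52.2 ± 29.0 in Cosmc KO and 60.6 ± 40.2 in Cre-carrying controls (-0.08 ± 0.57, adjusted p = 0.946). Its direction turned in several alternatives. Mmp2, the gelatinase of another chromosome, rose by 0.72 ± 0.11 (adjusted p = 0.0205), and the membrane-anchored Mmp17 rose by 0.71 ± 0.11 (adjusted p = 0.0199). Mmp3, Mmp10 and Mmp27 were called in all 7 fits that left out 1 library. Mmp12 was lost without Cre-carrying control 1 or 5, Mmp2 also without Cosmc KO 3 or Cre-carrying control 4, Mmp17 also without Cosmc KO 3 or 4 or Cre-carrying control 4, and Mmp13 without any single library but Cosmc KO 1, with adjusted p up to 0.0721, 0.121, 0.118 and 0.105.

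Promoter windows of the genes that rose in this stretch of chromosome 9 were searched for a motif. The windows that hold it, from 4 genes, are shown, so they were picked for the motif. Each runs from 250 bases before to 50 bases after a gene start on the plus strand of chromosome 9, taken from RefSeq on GRCm38.p6, and capitals mark TGANTCA, the core bound by AP-1 (Fos and Jun) factors. The motif reads the same on both strands and no other motif was searched. It starts 46, 63, 44 and 35 bases before the start of Mmp3, Mmp10, Mmp12 (the second of its 2 listed promoters) and Mmp13.
Mmp3, chr9:7445572-7445871: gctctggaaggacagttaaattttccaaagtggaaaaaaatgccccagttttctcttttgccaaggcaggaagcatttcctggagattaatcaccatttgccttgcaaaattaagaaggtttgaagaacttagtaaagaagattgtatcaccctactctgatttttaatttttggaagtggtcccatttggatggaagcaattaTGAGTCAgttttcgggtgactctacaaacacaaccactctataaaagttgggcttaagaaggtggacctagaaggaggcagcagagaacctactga
Mmp10, chr9:7502092-7502391: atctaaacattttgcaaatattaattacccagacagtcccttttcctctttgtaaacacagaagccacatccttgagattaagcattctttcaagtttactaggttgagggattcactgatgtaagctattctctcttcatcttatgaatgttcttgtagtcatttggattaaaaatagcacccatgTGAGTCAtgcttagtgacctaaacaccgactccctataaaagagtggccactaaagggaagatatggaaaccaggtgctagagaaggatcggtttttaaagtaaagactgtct
Mmp12, chr9:7347124-7347423: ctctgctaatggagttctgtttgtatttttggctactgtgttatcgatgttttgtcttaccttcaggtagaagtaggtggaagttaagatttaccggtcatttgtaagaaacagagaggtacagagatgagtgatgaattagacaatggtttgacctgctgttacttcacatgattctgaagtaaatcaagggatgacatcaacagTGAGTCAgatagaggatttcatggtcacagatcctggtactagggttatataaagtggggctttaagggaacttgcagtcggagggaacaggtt
Mmp13, chr9:7272264-7272563: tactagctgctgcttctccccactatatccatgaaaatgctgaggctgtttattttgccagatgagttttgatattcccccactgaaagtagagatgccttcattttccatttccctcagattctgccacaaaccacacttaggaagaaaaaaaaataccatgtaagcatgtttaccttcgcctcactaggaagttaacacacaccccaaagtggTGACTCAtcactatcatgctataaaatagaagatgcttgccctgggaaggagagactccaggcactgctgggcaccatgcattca
The Mmp27 window and the first Mmp12 window do not hold these letters and are not shown. Over all genes tested with a listed promoter, 797 of 11801 (6.75%) had the motif. It was found for 29 of 200 genes that rose (14.5%) and 6 of 104 that fell (5.77%). A match describes letters in a window and not a bound site.

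Members of both extracellular matrix lists rose, though most members did not pass. Of 28 basement membrane genes 7 rose, none fell and 21 did not pass, with 12 negative differences and a median of 0.08, against 1.69% of all genes rising and a median of -0.00. Col4a1 and Col4a2, the ubiquitous type IV collagen chains, averaged 178438 ± 15080 and 118634 ± 6612 in Cosmc KO, against 82370 ± 8365 and 56394 ± 3967 in Cre-carrying controls (1.12 ± 0.20 and 1.07 ± 0.16, adjusted p = 0.0297 and 0.0176). Lama1, the laminin alpha chain of early basement membranes, rose by 1.88 ± 0.38, the linker proteins Nid1 and Nid2 rose by 0.98 ± 0.13 and 0.81 ± 0.11, and Tinagl1 rose by 0.85 ± 0.16 (adjusted p = 0.0468, 0.0131, 0.0119 and 0.0348). Of the 7 calls on this list, 1 was left without Cre-carrying control 5 and 2 with the tubule covariate, Nid1 among them, where 0.607% of all genes rose. Col4a1 and Lama1 were lost without any single library but Cosmc KO 1, and Col4a2 without Cosmc KO 3 or 4 or Cre-carrying control 4 or 5. Nid1 was lost without any 1 Cre-carrying control, Nid2 without Cosmc KO 3 or Cre-carrying control 1 or 5, and Tinagl1 without Cosmc KO 2, 3 or 4 or Cre-carrying control 4 or 5. The adjusted p reached 0.162, 0.199, 0.115, 0.0891, 0.0793 and 0.166 for these 6, in the same order.

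Of 33 interstitial matrix genes 11 rose (7 without Cre-carrying control 5) and 1 fell, and the median was 0.53. For 17 of them the groups did not overlap with Cosmc KO higher, as for 8.44% of all genes. Col8a1, a short-chain collagen, read 8472, 8639, 8806 and 10196 in Cosmc KO 1 to 4, against 1069, 2139 and 1023 in Cre-carrying controls 1, 4 and 5 (2.76 ± 0.25, adjusted p = 0.00396). Tnc (tenascin C), a matrix protein of remodelling tissue, read 7438, 5892, 5889 and 5687 in Cosmc KO and 1206, 1269 and 592 in Cre-carrying controls (2.68 ± 0.26, adjusted p = 0.00396). Both were far apart between the groups, and Cosmc KO 1 was not lower than the other Cosmc KO libraries for Tnc. The fibrillar collagens Col1a1, Col3a1 and Col5a1 rose by 1.40 ± 0.14, 1.47 ± 0.15 and 1.54 ± 0.18 (adjusted p = 0.00396, 0.00396 and 0.00683), and Loxl4, which crosslinks collagen, rose by 2.41 ± 0.25 (adjusted p = 0.00424). Col1a1 stood at 904 ± 126 in Cosmc KO and 339 ± 15.2 in Cre-carrying controls. Other members that rose were Spon2, Col6a3 and Fn1 (fibronectin, 1.21 ± 0.16, adjusted p = 0.0121) and the metalloproteinase inhibitor Timp1 (1.80 ± 0.31, adjusted p = 0.0288), and Postn was the member that fell. Col6a3 rose by 0.73 ± 0.10 (adjusted p = 0.0129). Spon2, Col8a1, Tnc, Loxl4, Col1a1, Col3a1 and Col5a1 were called in every fit that left out 1 library. Col6a3 and Fn1 were lost without Cre-carrying control 1 or 5, and Timp1 without Cosmc KO 2 or 3 or any 1 Cre-carrying control (adjusted p up to 0.0815, 0.0716 and 0.126). With the tubule covariate 9 members rose, and without Cosmc KO 2 and 3 together 6 rose, where 0.358% of all genes did.

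**Figure D4:**
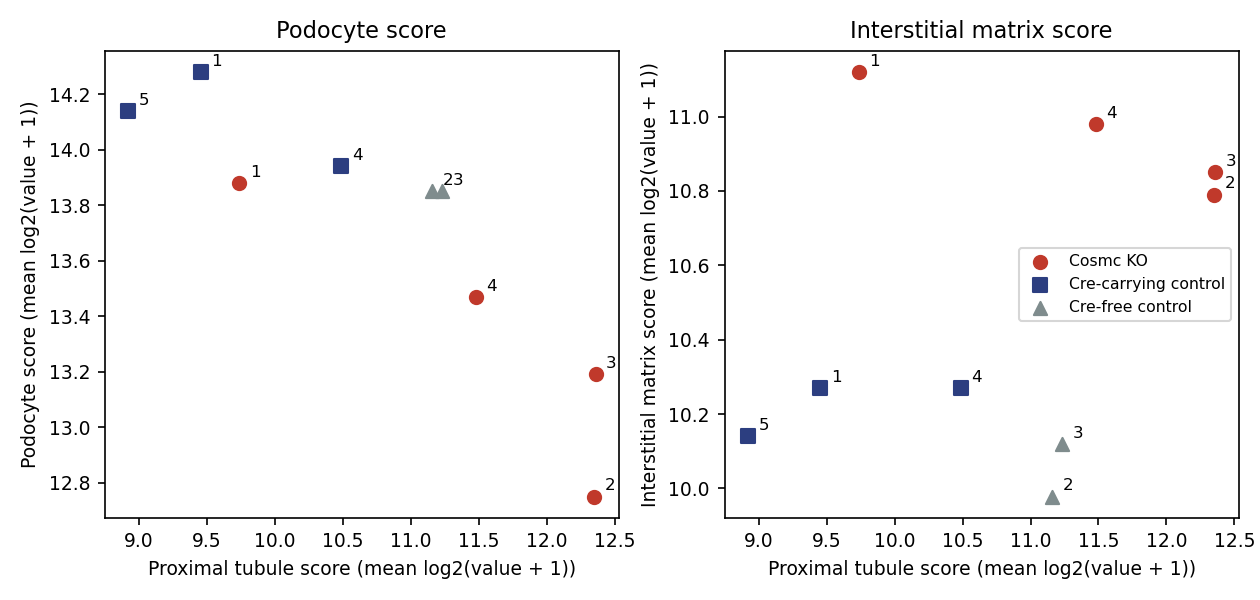
Podocyte score (left) and interstitial matrix score (right) of each library against its proximal tubule score, each the mean log2(value + 1) of a list, for Cosmc KO, Cre-carrying and Cre-free controls with the animal's number. The podocyte score is lowest (12.75 and 13.19) in Cosmc KO 2 and 3, whose proximal tubule scores are highest. The matrix score of all 4 Cosmc KO libraries (10.79 to 11.12) lies above every control (9.978 to 10.27). No control has a tubule score above 11.23, against 12.35, 12.36 and 11.48 in Cosmc KO 2, 3 and 4. The part of tubule RNA in the matrix difference was not tested beyond the fit with the tubule covariate.

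Kidney injury genes, which damaged tubule and parietal cells are known to induce, had the largest count of higher calls of the 22 lists. The lists differ in size and share members, and the interstitial matrix list had 11 of 33 higher. Of 40 injury genes tested, 12 rose and none fell, where 1.69% of all genes rose. Of these 40, 39 had a positive difference, and the median was 1.39. Havcr1 (KIM-1) read 267, 2490, 1439 and 214 in Cosmc KO 1 to 4, against 7.40, 6.31 and 38.8 in Cre-carrying controls 1, 4 and 5 (5.64 ± 0.98, adjusted p = 0.0294). Lcn2 (NGAL), which binds iron carriers, read 290, 1753, 829 and 346 in Cosmc KO and 51.8, 38.9 and 18.3 in Cre-carrying controls (4.17 ± 0.64, adjusted p = 0.0191). For both, Cosmc KO 2 and 3 were the highest and Cosmc KO 1 was still above every control. The keratin gene Krt20 rose by 4.46 ± 0.82 and Ccl2, a chemokine that draws monocytes, rose by 4.10 ± 0.74 (adjusted p = 0.0355 and 0.0323). Tnfrsf12a, the receptor of TWEAK, rose by 1.77 ± 0.31, the calcium-binding S100a6 rose by 1.42 ± 0.21, and Plau (urokinase) rose by 1.00 ± 0.16 (adjusted p = 0.0312, 0.0166 and 0.0226). The rest were Timp1, Mmp10 and the fibrinogen genes. Of the 7 genes given here, Plau was lost without any single library but Cosmc KO 1. The others were each lost without Cosmc KO 3 or any 1 Cre-carrying control, and Krt20 and Ccl2 also without Cosmc KO 2. The adjusted p reached 0.122 for Havcr1 and Plau, 0.106 for Lcn2, 0.162 for Krt20, 0.115 for Ccl2, 0.154 for Tnfrsf12a and 0.0956 for S100a6. The count of members that rose was 1 without Cre-carrying control 1, 25 without Cosmc KO 1, where 13.1% of all genes rose, and 3 with the tubule covariate, where 0.607% did. The part of tubule RNA in these calls was not tested beyond that covariate, and the list's score was above all Cre-carrying controls (8.346 to 8.579) in each of Cosmc KO 1 to 4 (9.831, 10.86, 10.55 and 9.818).

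The 3 fibrinogen chains, neighbours on chromosome 3, rose. Fga read 174, 1161, 1010 and 269 in Cosmc KO 1 to 4 and 13.8, 10.5 and 11.9 in Cre-carrying controls 1, 4 and 5 (5.23 ± 0.66, adjusted p = 0.0101). Fgg averaged 623 ± 457 in Cosmc KO and 13.4 ± 5.71 in Cre-carrying controls (5.11 ± 0.67, adjusted p = 0.0119), and Fgb averaged 148 ± 104 in Cosmc KO and 14.1 ± 6.75 in Cre-carrying controls (3.13 ± 0.59, adjusted p = 0.0378). All 3 were highest in Cosmc KO 2 and 3. With the tubule covariate Fga and Fgg were called (3.82 and 3.40, adjusted p = 0.0305 and 0.0154) and Fgb was not (1.71, adjusted p = 0.161). The complement and coagulation list that holds them had 10 members higher and 1 lower of 33, with a median of 0.94, where 1.69% of all genes were higher and 0.911% lower. C3, the central complement component, averaged 6221 ± 4635 in Cosmc KO and 658 ± 67.0 in Cre-carrying controls (2.88 ± 0.59, adjusted p = 0.0480). F2r, the thrombin receptor, rose by 0.94 ± 0.17 (adjusted p = 0.0312). Fga and Fgg were lost without Cre-carrying control 1 or 5 (adjusted p up to 0.0645 and 0.0716), and Fgb and C3 without any single library but Cosmc KO 1 (up to 0.170 and 0.197). F2r was lost without Cosmc KO 3 or 4 or any 1 Cre-carrying control (up to 0.158). No member was called higher without Cre-carrying control 5 and 16 were without Cosmc KO 1, where 13.1% of all genes were.

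The immune cell list had 5 members higher and none lower of 33, with a median of 0.23, where 1.69% of all genes were higher. Of the 33, 20 had a positive and 13 a negative difference. The negative ones, none called, included the macrophage gene Mrc1 (-0.58), the leukocyte gene Ptprc (-0.17) and all tested T and B cell genes of the list. There were 8 higher and 3 lower without Cosmc KO 1, where 13.1% and 10.5% of all genes were. The complement C1q chains made by macrophages, C1qa, C1qb and C1qc, averaged 289 ± 152, 312 ± 164 and 217 ± 104 in Cosmc KO, against 49.998 ± 13.4, 64.4 ± 14.1 and 44.6 ± 4.63 in Cre-carrying controls (2.38 ± 0.43, 2.11 ± 0.44 and 2.13 ± 0.39, adjusted p = 0.0344, 0.0499 and 0.0332). Csf1r, the receptor that sustains macrophages, rose by 0.89 ± 0.18 and Cd14, a receptor of bacterial lipopolysaccharide, by 1.00 ± 0.16 (adjusted p = 0.0481 and 0.0235). C1qa was lost without any single library but Cosmc KO 1, C1qb and C1qc without Cosmc KO 2 or 3 or any 1 Cre-carrying control, Csf1r without Cosmc KO 3 or 4 or any 1 Cre-carrying control, and Cd14 without Cosmc KO 3 or Cre-carrying control 4 or 5 (adjusted p up to 0.130, 0.193, 0.145, 0.143 and 0.122). None of the 5 was called with the tubule covariate. The median of this list depended on the control. It was 0.97 for Cosmc KO minus Cre-free control and 0.64 for Cre-carrying minus Cre-free control, comparisons that share libraries, and 31 of the 33 members had a positive Cre-carrying minus Cre-free difference although none was called.

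Of 34 interferon response genes 1 rose, Ifi27l2a, at 564 ± 28.04 in Cosmc KO and 248 ± 49.2 in Cre-carrying controls (1.20 ± 0.16, adjusted p = 0.0119), and none fell. Of 29 immediate early and AP-1 genes 4 rose and none fell, with a median of 0.31, beside the same 1.69% of all genes rising. Without Cosmc KO 1 these counts were 7 and 6, where 13.1% of all genes rose. Cyr61, a matricellular protein, read 11923, 11811, 10902 and 13826 in Cosmc KO 1 to 4 and 6119, 6274 and 5725 in Cre-carrying controls (1.00 ± 0.11, adjusted p = 0.00513). The groups were far apart, and Cyr61 was called in all 7 fits that left out 1 library. The transcription factors Maff and Egr2 rose by 1.81 ± 0.24 and 1.38 ± 0.27, and the early response gene Ier3 rose by 0.71 ± 0.13 (adjusted p = 0.0119, 0.0427 and 0.0344). Ifi27l2a was lost without Cre-carrying control 4, Maff without Cre-carrying control 4 or 5, and Egr2 and Ier3 without any single library but Cosmc KO 1 (adjusted p up to 0.0565, 0.0705, 0.138 and 0.154).

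Podocyte genes had mostly negative differences (48 of 53), but few passed. Of the 53 tested 5 fell and none rose, against 0.911% of all genes falling, and the median was -0.91. For 28 of them the groups did not overlap with Cosmc KO lower, as for 10.7% of all genes. Shisa3, the most changed, read 15155, 3737, 7052 and 8671 in Cosmc KO 1 to 4, against 44521, 27500 and 30277 in Cre-carrying controls 1, 4 and 5 (-2.12 ± 0.42, adjusted p = 0.0450). Cosmc KO 2 was the lowest and Cosmc KO 1 the highest of the Cosmc KO libraries, still under every control. Mpp5 (Pals1), a polarity scaffold, fell by 1.67 ± 0.34, Rhpn1 fell by 1.21 ± 0.21, and the transcription factor Foxc2 fell by 1.05 ± 0.20 (adjusted p = 0.0483, 0.0288 and 0.0416). These 4 calls were lost without Cosmc KO 3 or 4 or any 1 Cre-carrying control, and Mpp5 also without Cosmc KO 2 (adjusted p up to 0.167 for Shisa3, 0.176 for Mpp5, 0.138 for Rhpn1 and 0.185 for Foxc2).

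Defining podocyte genes did not pass. Wt1, the master transcription factor, averaged 11800 ± 5004 in Cosmc KO and 26246 ± 6524 in Cre-carrying controls (-1.22 ± 0.32, adjusted p = 0.0963). Synpo, the actin-binding synaptopodin, averaged 63642 ± 19319 in Cosmc KO and 124826 ± 20059 in Cre-carrying controls (-1.01 ± 0.27, adjusted p = 0.0991). Nphs1 (nephrin), the adhesion protein of the slit diaphragm, differed by -0.74 ± 0.30 (adjusted p = 0.203). Cosmc KO 1 had the highest podocyte score of the Cosmc KO libraries, 13.88, against 12.75, 13.19 and 13.47 in Cosmc KO 2 to 4 and 13.94 to 14.28 in Cre-carrying controls. Without Cosmc KO 1, 39 members fell, among them Wt1, Synpo and Nphs1 (adjusted p = 0.0094, 0.0146 and 0.0291), where 10.5% of all genes fell, but the Cosmc KO libraries left all had a higher proximal tubule score than any control, so that group and tubule RNA cannot be told apart in that fit. With all 7 libraries and the tubule covariate no member fell and the median was -0.28. Without Cosmc KO 2 and 3 together none fell either, where 0.0608% of all genes did, and the median was -0.52. Against the Cre-free controls, whose podocyte scores were both 13.85, no member was called and the median was -0.58, while Cre-carrying minus Cre-free gave 0.28 with 50 of 53 members positive and none called. These medians share libraries.

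Slit diaphragm genes, which build the filter between foot processes, had 1 member lower (Mpp5) of 28, none higher and a median of -0.63, where 0.911% of all genes fell. The count lower was 15 without Cosmc KO 1, where 10.5% of all genes fell, and 0 without any other single library. Of 30 genes of the podocyte actin skeleton 1 fell, Kank1, an adaptor at cell adhesions, at 6261 ± 1223 in Cosmc KO and 11467 ± 1758 in Cre-carrying controls (-0.88 ± 0.17, adjusted p = 0.0433), none rose and the median was -0.04. Of the 30, 6 fell and 3 rose without Cosmc KO 1, where 10.5% of all genes fell and 13.1% rose. Kank1 was lost without any single library but Cosmc KO 1 (adjusted p up to 0.162).

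The other glomerular cell types are read against 1.69% of all genes rising and 0.911% falling. Of 32 endothelial genes 1 rose, Eng (endoglin, a co-receptor of the TGF-beta family), at 81760 ± 6881 in Cosmc KO and 42985 ± 2580 in Cre-carrying controls (0.93 ± 0.15, adjusted p = 0.0226). No endothelial gene fell, and the median was 0.03. Of 27 mesangial and vascular muscle genes 2 rose, Mcam and the smooth muscle gene Tagln (0.93 ± 0.18, adjusted p = 0.0428). No mesangial gene fell, and the median was 0.05. The parietal epithelium lines Bowman's capsule, and its list had 3 members higher and 1 lower of 22 tested (median 0.81). It had 13 higher without Cosmc KO 1, where 13.1% of all genes were, and 1 without Cosmc KO 3 or any 1 Cre-carrying control, and its median was 0.20 with the tubule covariate. With Cosmc KO 1 left out, the endothelial list had 3 higher and 3 lower members, and the mesangial one 6 higher and 5 lower. In that fit 13.1% of all genes were higher and 10.5% lower. The parietal genes that rose with all 7 libraries were Aldh1a2, the tight junction gene Cldn1 (1.73 ± 0.31, adjusted p = 0.0318) and the scaffold gene Akap12 (0.69 ± 0.10, adjusted p = 0.0138), and the adhesion gene Ncam1 fell (-1.08 ± 0.19, adjusted p = 0.0298). Eng, Cldn1 and Ncam1 were lost without any single library but Cosmc KO 1, Tagln without Cosmc KO 2, 3 or 4 or Cre-carrying control 4 or 5, and Akap12 without Cosmc KO 3 or any 1 Cre-carrying control (adjusted p up to 0.131, 0.122, 0.102, 0.178 and 0.0770).

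Tubule genes varied widely within Cosmc KO and between the control types. All 36 proximal tubule markers had a positive Cosmc KO minus Cre-carrying difference, with a median of 2.01, yet none was called and none had groups that did not overlap. Slc34a1, the phosphate transporter of the proximal tubule, read 7676, 86187, 79037 and 34857 in Cosmc KO 1 to 4, against 7217, 14606 and 5518 in Cre-carrying controls 1, 4 and 5 and 28237 and 28074 in Cre-free controls (2.14 ± 0.81, adjusted p = 0.183). Cosmc KO 1 lay among the Cre-carrying controls, and both Cre-free controls lay above all of these. Gpx3, a secreted glutathione peroxidase made in the proximal tubule, averaged 243757 ± 176051 in Cosmc KO and 49331 ± 19610 in Cre-carrying controls (1.96 ± 0.72, adjusted p = 0.177). The list's median was 0.34 for Cosmc KO minus Cre-free control and -1.65 for Cre-carrying minus Cre-free control, with all 36 members negative there, none called, and libraries shared between the comparisons. Without Cosmc KO 1, 30 of the 36 rose, where 13.1% of all genes did. None of 27 distal nephron genes was called (median 0.66). Leaving out Cosmc KO 1, 12 of the 27 rose and 1 fell, where 13.1% of all genes rose and 10.5% fell. The median was -0.29 without Cosmc KO 2 and 3, and -1.13 with the tubule covariate, where 3 fell (0.185% of all genes did). Umod, the uromodulin of the thick ascending limb, differed by 0.73 ± 0.38 and Egf, made in the distal tubule, by -0.26 ± 0.17 (adjusted p = 0.284 and 0.383). None of 11 red cell genes was called (median -1.27). Hbb-bs and Hba-a1, globin genes with near-identical copies, differed by -1.31 ± 0.58 and -1.27 ± 0.60 (adjusted p = 0.227 and 0.251).

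**Figure D5:**
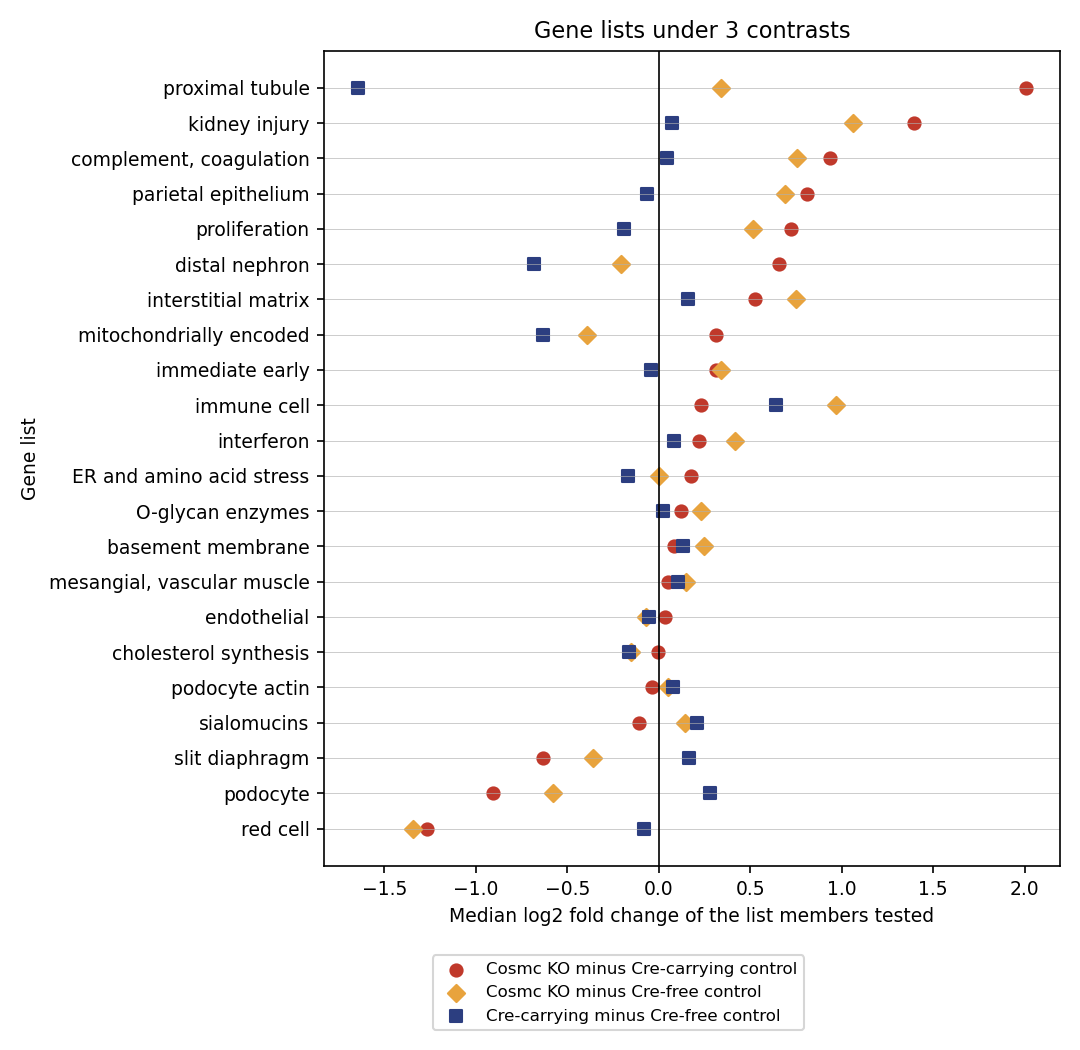
Median log2 fold change of the tested members of each gene list (rows, ordered by the first contrast) for Cosmc KO minus Cre-carrying control, Cosmc KO minus Cre-free control and Cre-carrying minus Cre-free control. The injury list is near 0 between the control types (0.07) and over 1 in both Cosmc KO contrasts (1.39 and 1.06), whereas the proximal tubule list moves between 2.01, 0.34 and -1.65. The contrasts share libraries.

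The remaining lists held few or no calls, beside 1.69% of all genes rising and 0.911% falling. Among 32 proliferation genes 1 fell, the cell cycle regulator E2f1 (-0.73 ± 0.14, adjusted p = 0.0384), none rose and the median was 0.72. Among 25 cholesterol synthesis genes 1 fell, Dhcr7, which catalyses the closing step to cholesterol (-0.80 ± 0.14, adjusted p = 0.0312), none rose and the median was -0.00. Of the 25, 6 rose and 2 fell without Cosmc KO 1, where 13.1% of all genes rose and 10.5% fell. E2f1 was lost without any single library but Cosmc KO 1, and Dhcr7 without Cosmc KO 2, 3 or 4 or Cre-carrying control 1 or 5 (adjusted p up to 0.185 and 0.118). None of 29 genes of the endoplasmic reticulum and amino acid stress responses was called (median 0.17). Without Cosmc KO 1, 6 of the 29 rose and 2 fell, beside the same 13.1% and 10.5% of all genes. The chaperone genes Calr and Hsp90b1 differed by 0.17 ± 0.26 and 0.05 ± 0.22 (adjusted p = 0.705 and 0.897). None of 13 mitochondrially encoded genes was called (median 0.31). The respiratory chain genes mt-Co1 and mt-Cytb differed by 0.25 ± 0.41 and 0.28 ± 0.35 (adjusted p = 0.728 and 0.643).

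For most called genes the Cre-free controls stood with the Cre-carrying ones. Among the 284 genes that rose, 4 had a Cre-free control above the lowest Cosmc KO library, and among the 153 that fell, 5 had one below the highest. They were picked by these values and are given without a further test. Both Cre-free controls were on the Cosmc KO side for Prm1, 6030408B16Rik and Gpd1. Gpd1, the glycerol-3-phosphate dehydrogenase of the cytosol, read 2734, 7450, 7182 and 4416 in Cosmc KO 1 to 4, 1321, 1848 and 1569 in Cre-carrying controls 1, 4 and 5, and 2761 and 2952 in Cre-free controls. It rose by 1.69 ± 0.34 (adjusted p = 0.0461) and was lost without any single library but Cosmc KO 1 (adjusted p up to 0.182). 1 Cre-free control was on that side for Gys2 (liver glycogen synthase), Slc30a2, Tmem178b, Notch2, Pard6b and Rassf10. Over the 284 higher genes the median Cre-carrying minus Cre-free difference was -0.02, and over the 153 lower genes it was 0.25. With the Cre-free controls in place of the Cre-carrying ones, in the fit of 3 groups, 196 genes rose (1.16%) and 39 fell (0.231%). With all 5 controls as 1 group, 1310 genes were called (7.77%), 707 higher (4.2%) and 603 lower (3.58%). In that fit 21 of the 53 podocyte genes fell and 1 rose, and 23 of the 40 injury genes rose and none fell.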

How the data were processed

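Values were taken from a single table of 16867 genes. Per the submitters' processing notes, reads were handled with STAR 2.5.2b, featureCounts, Subread 1.5.2 and DESeq2 on GRCm38. Filters, annotation release and strand setting are not given in the sources used here, so reads of overlapping genes cannot be told apart. The deposited sample columns hold a signal, read counts per gene scaled by the authors with 1 size factor for every library. Dividing by a step estimated for each library gave whole reads for 100% of the values (tolerance 0.01), so reads could be recovered, except for Cre-free control 3, whose size factor lies too near 1. The authors' deposited columns for Cosmc KO against all 5 controls, a mean signal, a log2 fold change with its error, a Wald score, and raw and adjusted p-values, were not used for any result. No per-sample column was left unused.

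Groups come from the genotype labels. All pairs of libraries differed by more than sampling noise (chi-square over its degrees of freedom at least 26.1). The p-values set each group difference against the spread between these samples. The labels do not say that the mice came from separate litters. log2(value + 1) was tested with limma 3.58.1 (trend option, R 4.3.3) over the 7 libraries. The 16794 genes that reached 10 in 3 or more libraries were tested, with Benjamini-Hochberg adjustment. Cre-carrying and Cre-free controls were compared in a fit of 9 libraries in 3 groups over 16849 genes. The fit was tested on simulated data with known changes. It recovered 52 of 100 changes of 1 on the log2 scale and 90 of 100 changes of 2. False calls numbered 10, in 16729 genes. Alternatives used edgeR 4.0.16, DESeq2 1.42.0 and limma-voom on recovered reads, other controls, filters, pseudocounts and scaling, age, a replicate block, the proximal tubule score, and leaving out libraries.

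The 22 gene lists were written with earlier results of these data known, and so was the choice of libraries. Named genes were C1galt1c1, C1galt1 and 6 podocyte genes, the 12 higher and 12 lower called genes with the largest fold change (group mean 50 or more, groups apart, no predicted genes), and up to 4 called members of each list, or its 2 most abundant where none was called. Genes called between the control types were added. Foxc2, Nid1, Nid2, Tinagl1, Col1a1, Col3a1, Col5a1, Col6a3, Fn1, Timp1, Lcn2, Krt20, S100a6, Plau, Tnfrsf12a, Ccl2, F2r, Csf1r, the Mmp genes other than Mmp10, and the genes named for their Cre-free values were chosen after their values were seen. Gene positions and promoters are from RefSeq tables on GRCm38.p6. Intervals on counts are exact (95%) and take in only the error of counting. Results for some genes are not reported here.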

Additional observations from a re-analysis of the deposited data

Results flagged for a closer look

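In 8 of 127 sets of 4 Cosmc KO libraries, 1 library lay far from the other 3, past Dixon's critical value. Chance flags about 1 in 20 such sets, so a count of this size is near what chance gives. Among genes, measured on log2(value + 1), Cosmc KO 1 was low for Lect1 (12.3, called in every fit that left out 1 library) and high for Tnc (7438) and Mmp8 (95.6). Cosmc KO 4 was high for Gpr165 (187) and low for Maff (501) and Calr (26660). Among list scores, Cosmc KO 1 was low for the O-glycan enzymes (9.713, against 9.981 to 10.02 in the others). Cosmc KO 4 was low for endoplasmic reticulum and amino acid stress (10.94, against 11.34 to 11.41). Gpr165 and Maff stayed higher in Cosmc KO 4 than in every Cre-carrying control.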

How the results depend on the processing

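The count of called genes (437) was 366 to 448 with edgeR (423), limma-voom, TMM scaling, other pseudocounts and other filters. It was 2055 with DESeq2 (1288 higher, 767 lower), 701 with all 9 libraries in 3 groups, 1310 against all 5 controls as 1 group, 235 against Cre-free controls, 288 with age as a covariate, 133 with the tubule score and 69 without Cosmc KO 2 and 3. The cause of these differences was not tested. Leaving out 1 library gave 71 to 3963. The control comparison gave 1 call in all limma settings and with each of the 5 control libraries left out (1 to 1), and 0 in edgeR without Cre-free control 3, an alternative chosen after seeing the data. edgeR on all 9 libraries was not run. Adding a replicate block gave 1216 calls, C1galt1c1 among them (-0.67, adjusted p = 0.0158). Only numbers 1 and 4 occur in both groups, so the block difference rests on those libraries alone. It leaves 1 residual degree of freedom per gene, and its calls lean on the spread shared across genes. The deviations of numbers 1 and 4 correlated at 0.291 and 0.0718. Of the named genes, 98 kept direction and call with edgeR and 7 lost the call. With the tubule score 54 lost it.

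Named genes that turned sign were all uncalled except Prm1. Prm1 was 1.76 against all 5 controls and 7.29 against Cre-free controls. Under the block, C1galt1 was 0.061, Umod -0.098, Calr -0.076, mt-Co1 -0.21 and mt-Cytb -0.26. With the tubule score, C1galt1 was 0.063, Slc34a1 -0.13, Umod -0.093, mt-Co1 -0.40, mt-Cytb -0.39 and Mmp8 0.15. Against Cre-free controls, Calr was -0.16, Hsp90b1 -0.23, mt-Co1 -0.36, mt-Cytb -0.35 and Mmp8 1.23. Against all 5 controls, Hsp90b1 was -0.060 and Mmp8 0.45. With age, Hsp90b1 was -0.034. Without Cosmc KO 2 and 3, C1galt1 was 0.078, Calr -0.0081, mt-Co1 -0.16, mt-Cytb -0.17 and Mmp8 0.32. Leaving out 1 library, C1galt1 ranged from -0.064 to 0.019, Hsp90b1 from -0.088 to 0.21 and Mmp8 from -0.70 to 0.42. With 4 and 3 libraries, an uncalled gene is not shown to be equal between the groups.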
